A study of Mus musculus with 16 samples.

Results

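A set of 10 genes that mark endothelial cells, the cells that line blood vessels and the chambers of the heart, was followed in heart ventricle RNA from 16 mice. They were taken by symbol as markers of endothelial identity, with earlier results of these data known: Pecam1, Cdh5, Kdr, Flt1, Tek, Tie1, Vwf, Eng, Esam and Emcn. All 10 were found among the 17737 genes of the table, and all 10 passed the filter on low counts that left 13381 genes to test. The animals were male C57BL/6 mice that went on to 1 of 4 diets at 6 weeks of age and ate it for 6 months, with 4 animals in each group and 1 library per animal. The diets were standard rodent chow (Prolab IsoPro), the NIA primate diet, the UW primate diet, and a modified NIA diet (mNIA) with sucrose and fat matched to UW. RNA was taken from the lower part of the ventricles, so each library mixes endothelial cells with cardiomyocytes, fibroblasts, mural cells and blood cells, and fewer endothelial cells cannot be told apart from less RNA per endothelial cell.

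Endothelial cells of the heart sit next to almost every cardiomyocyte as a dense capillary net. They are held together by adherens junctions and read VEGF and angiopoietin signals through receptor tyrosine kinases. Genes of this identity are typically driven by ETS-family transcription factors such as ERG and FLI1, which bind DNA around a GGAA core.

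Groups follow the diet in the sample titles. The codes of the libraries (CC for chow, MNC for NIA, NC for UW and UC for mNIA) do not spell the same names for the 3 primate-formula groups, so a comparison of a single formula rests on the titles, while the mean of the 3 formulas against chow does not. Total counts ran from 2278223 (NIA replicate 4) to 63005361 (NIA replicate 2), and from 3143343 to 6583503 in the other 14 libraries. The 10 genes together held 1012 counts in NIA replicate 4 and 3387 to 133493 in the other libraries, so NIA replicate 4 gave the least precise values (15 counts for Vwf). The cardiomyocyte markers Myh6 (5360 to 39800 CPM) and Tnnt2 (6670 to 18100 CPM) were abundant in every library, as the tissue label states. CPM is a gene's count per 1000000 counts of its library, with totals scaled by TMM. A quality weight that limma estimates from the spread of a library around its diet was under 0.5 in mNIA replicate 2 (0.36), chow replicate 3 (0.23), and NIA replicates 1 (0.3) and 4 (0.16).

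The markers were well expressed, from 69.1 CPM for Vwf to 331 CPM for Cdh5 and Kdr as means over 16 libraries, which placed them between the 82.5th and the 96.8th percentile of tested genes. Per kilobase of the longest coding transcript, Cdh5 was highest at 82.8 ± 24.3 CPM (SD, n = 16), followed by Eng (70.8 ± 21.9), Pecam1 (66.5 ± 15.4), Kdr (55.8 ± 16.7), Esam (39.5 ± 15.6), Flt1 (33.4 ± 8.97), Emcn (30.2 ± 9.61), Tie1 (28 ± 11.4), Tek (18.4 ± 4.53) and Vwf (7.82 ± 2.66). Neighbours in that order differed by no more than the larger of their SDs, except that Vwf lay further below Tek.

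Promoter sequence was at hand for 6 of the 10 genes (Kdr, Flt1, Tek, Tie1, Eng and Emcn; RefSeq on GRCm38.p6). Kdr, Flt1 and Tie1 correlated across animals in what follows, as did Tek and Eng, while Emcn correlated with these genes weakly. The part of promoter sequence in this was not tested. The stretches upstream of the start site of both VEGF receptor genes, of Tie1 and of Emcn are shown as examples. They are at most 200 bases, 5′ to 3′ on the gene's strand, with each GGAA core, or TTCC for the other strand, in capitals. Bases that GENCODE counts as transcribed were left out, which leaves 38 bases for Tie1, where the GENCODE gene starts 212 bases before the RefSeq start.
Kdr, chr5:75978459-75978658, minus strand: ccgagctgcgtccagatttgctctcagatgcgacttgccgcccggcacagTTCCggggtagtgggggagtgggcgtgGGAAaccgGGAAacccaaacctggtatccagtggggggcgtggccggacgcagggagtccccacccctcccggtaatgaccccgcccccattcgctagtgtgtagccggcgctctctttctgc
Flt1, chr5:147726012-147726211, minus strand: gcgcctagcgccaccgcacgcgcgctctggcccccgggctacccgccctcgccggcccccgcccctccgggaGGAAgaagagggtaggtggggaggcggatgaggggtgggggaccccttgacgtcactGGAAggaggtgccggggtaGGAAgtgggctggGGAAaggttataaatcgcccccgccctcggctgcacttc
Tie1, chr4:118490062-118490099, minus strand: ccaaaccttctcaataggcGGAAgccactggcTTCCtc
Emcn, chr3:137340867-137341066, plus strand: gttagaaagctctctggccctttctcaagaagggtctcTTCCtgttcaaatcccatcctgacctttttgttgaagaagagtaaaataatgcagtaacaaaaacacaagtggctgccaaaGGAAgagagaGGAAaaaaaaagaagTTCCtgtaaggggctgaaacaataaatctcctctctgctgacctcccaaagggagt
Kdr held 3 GGAA cores and Flt1 and Emcn 4 each, while Tek and Eng, whose sequences are not shown, held 2 each. Of 32843 promoter windows of 200 bases, 66.2% held at least 2 cores on either strand, 41% at least 3 and 21.5% at least 4. The longer forms AGGAAG and CGGAAG, each of which contains the core, were counted on both strands as well. They occurred 2 times in Flt1, Eng and Emcn and 0 times in Kdr and Tek, against at least 2 in 8.75% of all windows of 200 bases. Bases that GENCODE counts as transcribed were not left out of those windows. Tie1 held 2 in its 38 bases, a length to which that share does not apply. All these counts are matches of letters and not binding sites.

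The first 3 genes encode proteins of the junctions between endothelial cells. Cdh5 (chromosome 8, 104101625 to 104144503, plus strand, mm10) encodes VE-cadherin, the adhesion molecule of endothelial adherens junctions. In chow it was at 317, 317, 516 and 359 CPM in replicates 1 to 4, and in NIA at 308, 265, 353 and 95.3. In UW it was at 516, 296, 313 and 329.7, and in mNIA at 316, 410.2, 298 and 282. One animal stood above the rest of its diet in chow, UW and mNIA, and 1 far below in NIA, and every diet overlapped with every other.

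Pecam1 (chromosome 11, 106654213 to 106715282, minus strand), the adhesion receptor CD31 that platelets and leukocytes also carry, stood apart in the same animals, over a smaller range. It was at 219.6, 207, 309.6 and 225 CPM on chow and at 184, 237, 275 and 127 on NIA. In UW it was at 339, 200.3, 216 and 218, and in mNIA at 202, 299, 208 and 194. Esam (chromosome 9, 37528089 to 37538320, plus strand), an immunoglobulin-family adhesion molecule of endothelial tight junctions, was at 63, 66.6, 143 and 76.2 CPM on chow, 35.2, 85.45, 103 and 46.9 on NIA, 97.1, 58.3, 64.1 and 55.7 on UW, and 39.2, 118, 62.4 and 65.8 on mNIA. Its lowest animals were the first replicates of NIA and mNIA, and not NIA replicate 4.

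Both VEGF receptors followed the same animals. Kdr (chromosome 5, 75932827 to 75978456, minus strand), or VEGFR2, is the main signalling receptor for VEGF-A. It was at 306, 321, 455 and 376 CPM on chow, 289, 337, 356 and 85.3 on NIA, 528, 277, 267 and 395 on UW, and 274, 423, 337 and 267 on mNIA. Flt1 (chromosome 5, 147561604 to 147726012, minus strand), or VEGFR1, binds VEGF-A tightly with little signalling and is also made as a soluble decoy, which gene counts do not separate. It was at 199, 221, 337 and 236 CPM on chow, 197, 205, 245 and 55.5 on NIA, 292, 249, 246 and 258 on UW, and 210.2, 287, 183 and 267 on mNIA. The spread of Flt1 within UW was the smallest of any gene and diet (SD of log2 CPM 0.11), and that within NIA among the largest (0.98). The ratio of Kdr to Flt1 CPM was 1.35 to 1.59 on chow, 1.45 to 1.64 on NIA, 1.09 to 1.8 on UW and 1 to 1.84 on mNIA, so NIA replicate 4, low in both, kept a ratio (1.54) inside the chow range.

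The ratio within the angiopoietin receptor pair was lowest in NIA replicates 1 and 4. Tek (chromosome 4, 94739289 to 94874977, plus strand), or TIE2, binds the angiopoietins, and Tie1 (chromosome 4, 118471191 to 118489850, minus strand) is its partner with no well-defined ligand of its own. Tek was at 82.8, 76.1, 109.7 and 81.6 CPM on chow, 65.8, 92.1, 93.4 and 41.2 on NIA, 134, 78.4, 88.2 and 86.7 on UW, and 73.7, 113, 74.6 and 77.5 on mNIA. Tie1 was at 107, 114, 216 and 132 CPM on chow, 54.1, 139, 143 and 30.6 on NIA, 177, 99.8, 108 and 101 on UW, and 73.9, 194.5, 103.5 and 104 on mNIA. Tie1 spanned 7.07-fold from the lowest to the highest library and Tek 3.25-fold. The ratio of Tie1 to Tek was 0.822 and 0.741 in NIA replicates 1 and 4, and 1 to 1.97 in the other 14 libraries.

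The remaining 3 genes have other roles. Eng (chromosome 2, 32646595 to 32682670, plus strand) encodes endoglin, a co-receptor for BMP9 and TGF-beta. It was at 244, 232, 383 and 262 CPM on chow, 161, 295, 320.0 and 121 on NIA, 317, 198, 219 and 240.2 on UW, and 162, 356, 178 and 191 on mNIA. Vwf (chromosome 6, 125552948 to 125686680, plus strand), the clotting protein that endothelial cells store and secrete and that megakaryocytes also make, was at 68.3, 80.4, 92.3 and 76.2 CPM on chow, 42.8, 79.6, 78.65 and 10.7 on NIA, 106, 63, 60.9 and 70.7 on UW, and 43.7, 102, 61.7 and 68.7 on mNIA. It had the widest range of the 10, 9.95-fold. Emcn (chromosome 3, 137341078 to 137431070, plus strand) encodes endomucin, a sialomucin of capillary and venous endothelium. It was at 61.9, 52.3, 126 and 59.1 CPM on chow, 84.7, 76.2, 100.1 and 106 on NIA, 95.8, 56.4, 61.3 and 58.8 on UW, and 75.3, 121, 66.7 and 47 on mNIA. Emcn shared the high animals of chow, UW and mNIA, but in NIA its highest value came from replicate 4. In that library 8 of the 10 genes had their lowest value of all 16 libraries, as did 33% of all tested genes.

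**Figure D1:**
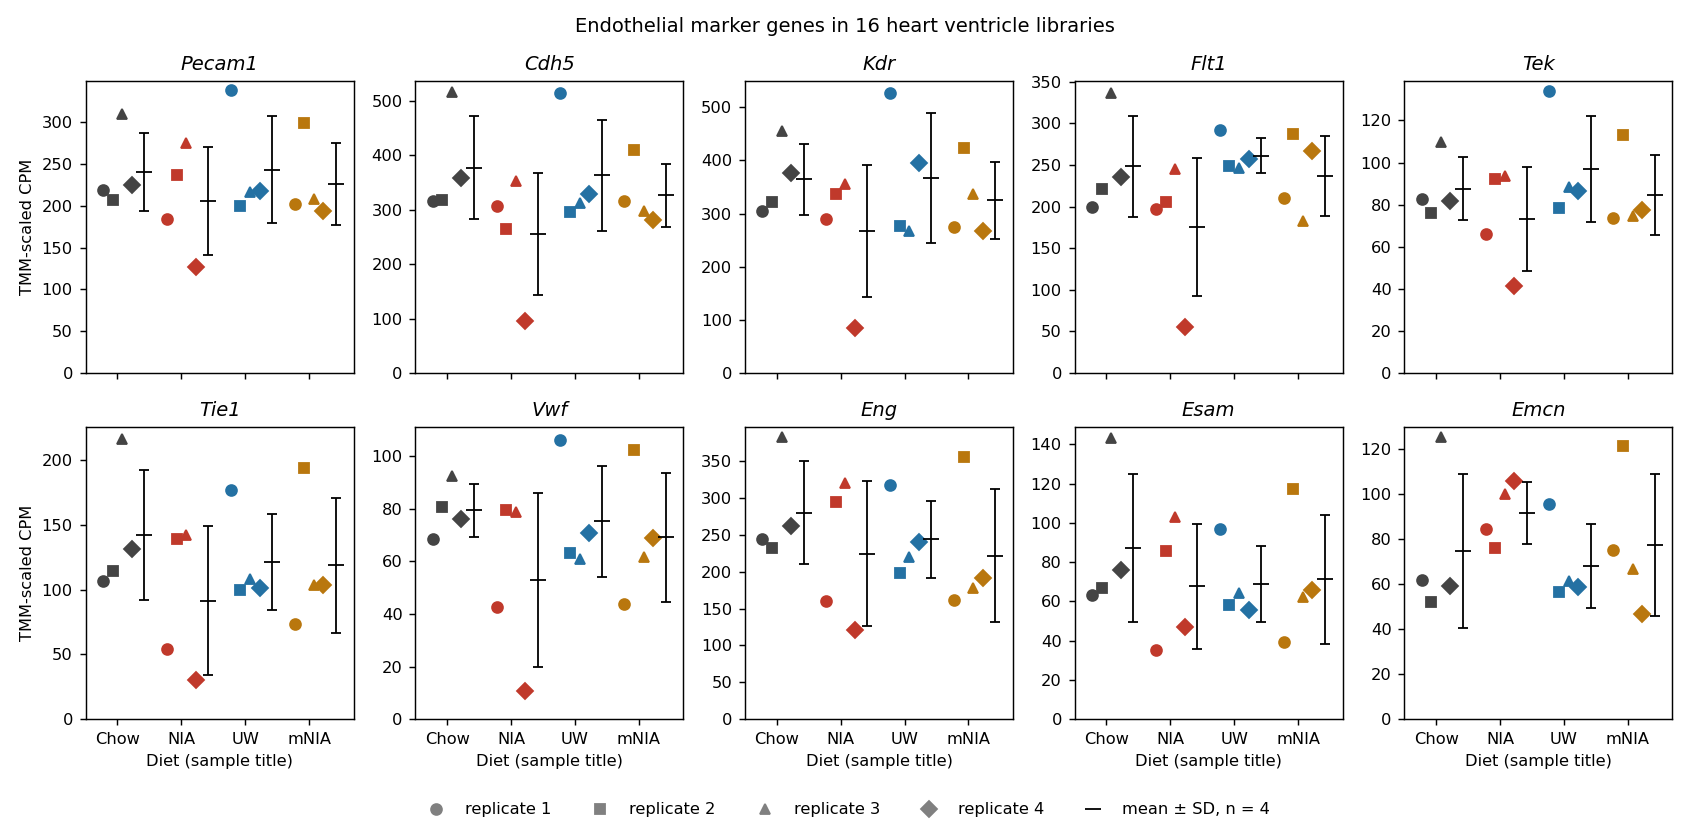
TMM-scaled CPM (vertical axes, from 0) of the 10 endothelial genes in each library, by diet; marker shapes are replicates, and the black bar and whiskers are the mean and SD of 4 animals. Chow replicate 3, UW replicate 1 and mNIA replicate 2 are the highest of their diet in all 10 genes, and NIA replicate 4 is the lowest of its diet in 8.

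No gene of the 10 passed the test for a difference between diets. For the mean of the 3 primate formulas minus chow, 9 of 10 had a lower mean on the formulas, with a median log2 fold change of -0.23 against 0 over all tested genes, but 0 of 10 passed at an adjusted p of 0.05 (edgeR's quasi-likelihood test with Benjamini-Hochberg adjustment; adjusted p from 0.938 to 0.983), and 0 had an unadjusted p under 0.05. In that comparison 0% of the 13381 genes passed and 2.19% had an unadjusted p under 0.05. DESeq2 and limma-voom also called 0 of the 10, and 0% and 0.0299% of all genes with an adjusted p. The log2 fold change ran from -0.37 ± 0.33 (SE) for Tie1 to 0.07 ± 0.25 for Emcn. The 95% confidence interval was -1.05 to 0.32 for Tie1, -0.82 to 0.28 for Cdh5 and -0.55 to 0.35 for Pecam1, and sizes inside these bounds cannot be told from 0 with these animals. The direction rested on 1 chow animal: without chow replicate 3 the median was -0.03 and 5 of 10 means were lower. Without NIA replicate 4 the median was -0.13 (8 of 10 lower), and with all 4 libraries of weight under 0.5 left out it was 0.01 (5 of 10 lower).

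Hearts on NIA had the lowest mean of the 4 diets for 8 of the 10 genes, but the difference from chow passed for none. The log2 fold change of NIA minus chow was -0.61 ± 0.41 for Tie1 (95% confidence interval -1.47 to 0.25), -0.56 ± 0.33 for Cdh5, -0.54 ± 0.39 for Vwf and -0.49 ± 0.33 for Flt1, against 0.29 ± 0.30 for Emcn (adjusted p from 0.636 to 0.857 over the 10). Of all tested genes 0% passed in edgeR here, while 8.7% had an unadjusted p under 0.05 and 0.232% passed in limma-voom. DESeq2 called 1.66% of the 6886 genes to which it gave an adjusted p, all 10 among those 6886, and 0 of the 10 were in any of these counts. The median over the 10 was -0.39, and it was -0.18 without NIA replicate 4, -0.22 without chow replicate 3 and -0.61 without NIA replicate 3. With the 4 low-weight libraries left out, so that 2 NIA animals remain, it was 0.20 with 1 of 10 lower, and in limma-voom, which weights libraries by quality, it was 0.03 with 5 of 10 lower.

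For UW minus chow the 10 genes were split, 4 higher and 6 lower in mean, from -0.34 ± 0.36 for Esam to 0.15 ± 0.25 for Tek (edgeR, adjusted p from 0.977 to 0.998). Of all tested genes 0% passed and 2.35% had an unadjusted p under 0.05. DESeq2 called 0.00748% of the genes to which it gave an adjusted p and limma-voom 0.0149% of those tested, with 0 of the 10 in each. For mNIA minus chow, 9 were lower, from -0.34 ± 0.32 for Eng to 0.05 ± 0.30 for Emcn (edgeR, adjusted p from 0.983 to 0.993). Of all tested genes 0.00747% passed and 1.38% had an unadjusted p under 0.05, and DESeq2 and limma-voom called 0% and 0.00747%, again with 0 of the 10. Single animals set both directions. For UW the median was -0.06, and it was 0.13 without chow replicate 3 (1 of 10 lower), 0.02 without UW replicate 2, 0.01 without UW replicate 3 and -0.28 without UW replicate 1 (9 of 10 lower). With the 4 low-weight libraries left out it was 0.14 (1 of 10 lower). For mNIA it was -0.18, and 0.03 without chow replicate 3 (4 of 10 lower), -0.08 without mNIA replicate 1 and -0.35 without mNIA replicate 2 (10 of 10 lower). In none of the 4 comparisons with chow did any of the 10 separate the groups completely, as 3.23% of all tested genes did for NIA, 4.45% for UW, 2.16% for mNIA and 0.0897% for the 3 formulas together.

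**Figure D2:**
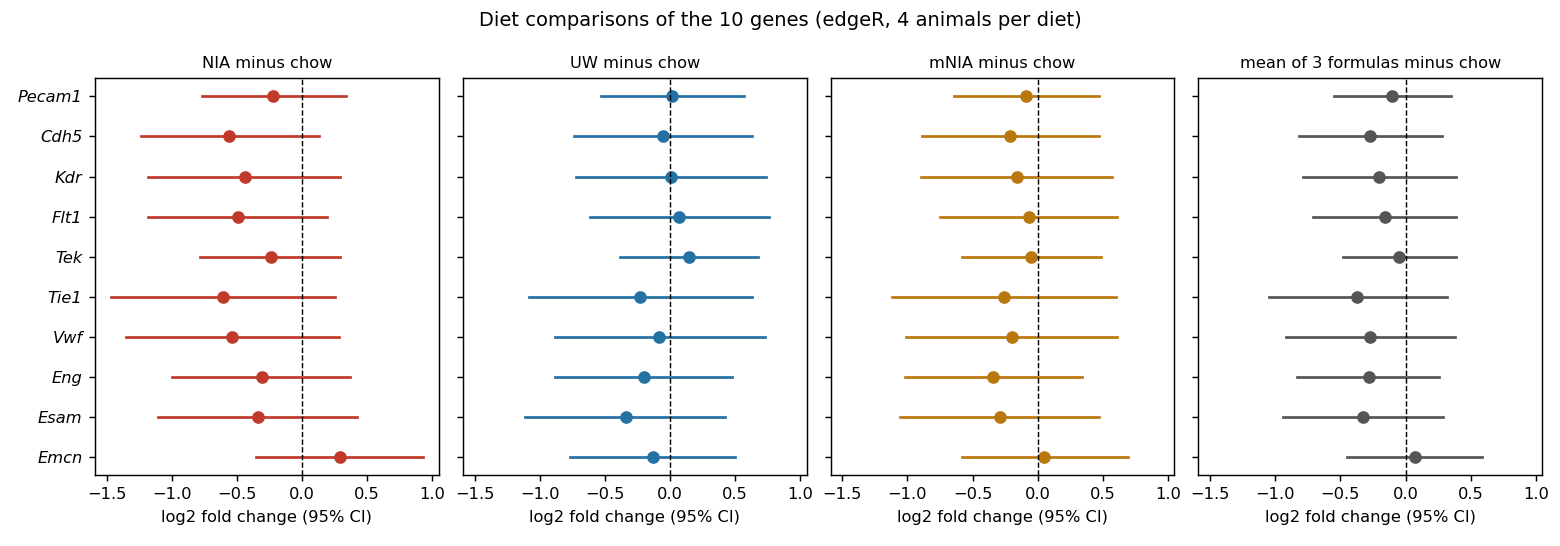
Log2 fold change (point) and 95% confidence interval (line) of each gene for the 3 diets against chow and for the mean of the 3 formulas against chow. Every interval includes 0, and NIA minus chow lies furthest to the left for Pecam1, Cdh5, Kdr, Flt1, Tek, Tie1 and Vwf.

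None of the 10 passed between the primate formulas either. Against NIA, UW was higher for 9 of 10 genes, up to 0.57 ± 0.33 for Flt1 (edgeR, adjusted p = 0.46), with Esam close to 0 (0.00 ± 0.37) and Emcn at -0.42 ± 0.30. The values of mNIA minus NIA ran from -0.24 ± 0.30 for Emcn to 0.42 ± 0.33 for Flt1, and those of mNIA minus UW from -0.19 ± 0.25 for Tek to 0.18 ± 0.30 for Emcn. In edgeR 0% of all tested genes passed in each of these 3 comparisons and in the joint test of the 4 diets (adjusted p from 0.938 to 0.97 for the 10). Unadjusted p-values under 0.05 made up 13.9% for UW minus NIA, 8.91% for mNIA minus NIA, 0.986% for mNIA minus UW and 6.88% in the joint test, with 0 of the 10 in each. DESeq2 called 3.36%, 0%, 0.00748% and 1.44% of the genes to which it gave an adjusted p, and limma-voom 7.13%, 15%, 0.00747% and 15%, again with 0 of the 10. For mNIA minus NIA DESeq2 gave an adjusted p for 6 of the 10. Flt1 was the 1 gene of the 10 whose groups did not overlap in any pair of diets, with UW at 246 to 292 CPM and NIA at 55.5 to 245; 6.35% of all tested genes were apart in that pair, 2.35% between mNIA and NIA and 1.43% between mNIA and UW. Comparisons that share a diet share its 4 libraries. When the 4 low-weight libraries were left out, Eng (-0.80, adjusted p = 0.00693) and Esam (-0.75, adjusted p = 0.0329) passed edgeR's test in mNIA minus NIA, where 23.1% of all tested genes then passed and NIA was left with replicates 2 and 3.

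The direction of the set turned with single animals for mNIA minus NIA and mNIA minus UW. It turned with settings for UW minus NIA and mNIA minus NIA. For UW minus NIA the median over the 10 was 0.39, and it was 0.16 without NIA replicate 4, 0.17 without UW replicate 1 and 0.26 without NIA replicate 1, each with 3 of 10 lower. It rose to 0.52 without NIA replicate 2 and 0.57 without NIA replicate 3, and stayed positive whichever single library was left out. In limma-voom and with the 4 low-weight libraries left out it was -0.04, each with 6 of 10 lower. For mNIA minus NIA the median was 0.24 (8 of 10 higher). It was -0.01 without NIA replicate 4 (5 of 10 lower), -0.02 without mNIA replicate 2 (6 lower), 0.12 without NIA replicate 1, -0.17 in limma-voom (8 lower) and -0.40 with the 4 libraries left out (10 lower). Without NIA replicate 3 it was 0.39. For mNIA minus UW the median was -0.13 (8 of 10 lower), and it was 0.08 without UW replicate 1 (1 of 10 lower), -0.34 without mNIA replicate 2, -0.06 without mNIA replicate 1 or 3 and -0.08 without mNIA replicate 4.

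The median spread within diets was wider than that of all tested genes, and diet took a share of the variation close to theirs. Diet took 8.46% (Esam) to 28.9% (Flt1) of the sum of squares of log2 CPM, with a median of 20%, against 19.2% over all tested genes. The SD within diets, pooled over the 4 diets, ran from 0.36 for Pecam1 to 0.75 for Vwf on the log2 scale, with a median of 0.53 against 0.42 over all tested genes and 0.41 over the 2345 genes at least as abundant as Vwf. It was largest in NIA for 9 of the 10, as it was for 65.1% of all tested genes, and Emcn was the exception with 0.22 in NIA and 0.57 in chow. The median SD over the 10 was 0.33 for chow, 0.79 for NIA, 0.36 for UW and 0.41 for mNIA, against 0.32, 0.55, 0.26 and 0.33 over all tested genes. NIA replicate 4 set much of this: without it the median pooled SD was 0.36, equal to the 0.36 over all tested genes.

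In each diet 1 animal stood apart in most of the 10 genes at once. Chow replicate 3, UW replicate 1 and mNIA replicate 2 were each the highest of their diet in 10 of 10 genes, a place they held for 43.6%, 29.9% and 37.3% of all tested genes. These animals were also the lowest of their diet for 39.4%, 36.1% and 36.5% of all tested genes, so they stood apart well beyond the 10. Their median log2 difference over the 10 from the mean of the other 3 animals of the diet was 0.63, 0.71 and 0.71, against 0.05, -0.03 and 0.03 over all tested genes. NIA replicate 4 was the lowest of its diet in 8 of 10, as for 40.8% of all tested genes, with a median difference of -1.36 (all tested genes -0.15), from -2.57 for Vwf to 0.29 for Emcn. NIA replicate 1 was mixed: against the other 3 NIA animals it was higher for Cdh5 (0.57), Flt1 (0.48), Kdr (0.41) and Vwf (0.07) and lower for Esam (-1.08), Tie1 (-0.64) and Eng (-0.49), with Pecam1, Tek and Emcn between -0.14 and -0.10.

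Transcript length moved with the low values of NIA replicate 4. Over all tested genes the median log2 difference of that library from the other 3 NIA animals was 1.03 in the shortest decile of transcripts (median 968 bases) and -0.91 in the longest (8233 bases). Among the 10 genes its shift fell with transcript length (Spearman rho -0.89 across genes, which are not independent replicates), from Esam (1865 bases, -0.53) and Emcn (2588 bases, 0.29) to Flt1 (6895 bases, -1.95) and Vwf (8834 bases, -2.57). Over 10 genes such a rho also reached 0.90 in chow replicate 2 and -0.78 in chow replicate 3, whose medians in the shortest and longest deciles were 0.00 and 0.02, and 0.18 and 0.02. NIA replicate 1 had the opposite profile to NIA replicate 4, with -0.60 in the shortest and 0.59 in the longest decile, and a rho of 0.64 over the 10. Relative to the median of tested genes in the same length decile, 9 of the 10 were lower in NIA replicate 4, with a median of -0.91 over the 10. The same measure was 0.59 in chow replicate 3, 0.73 in UW replicate 1 and 0.84 in mNIA replicate 2, higher in 10 of 10 genes each. With every library centred by length decile, the median log2 fold change of the 3 formulas against chow was -0.28 (9 of 10 lower).

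**Figure D3:**
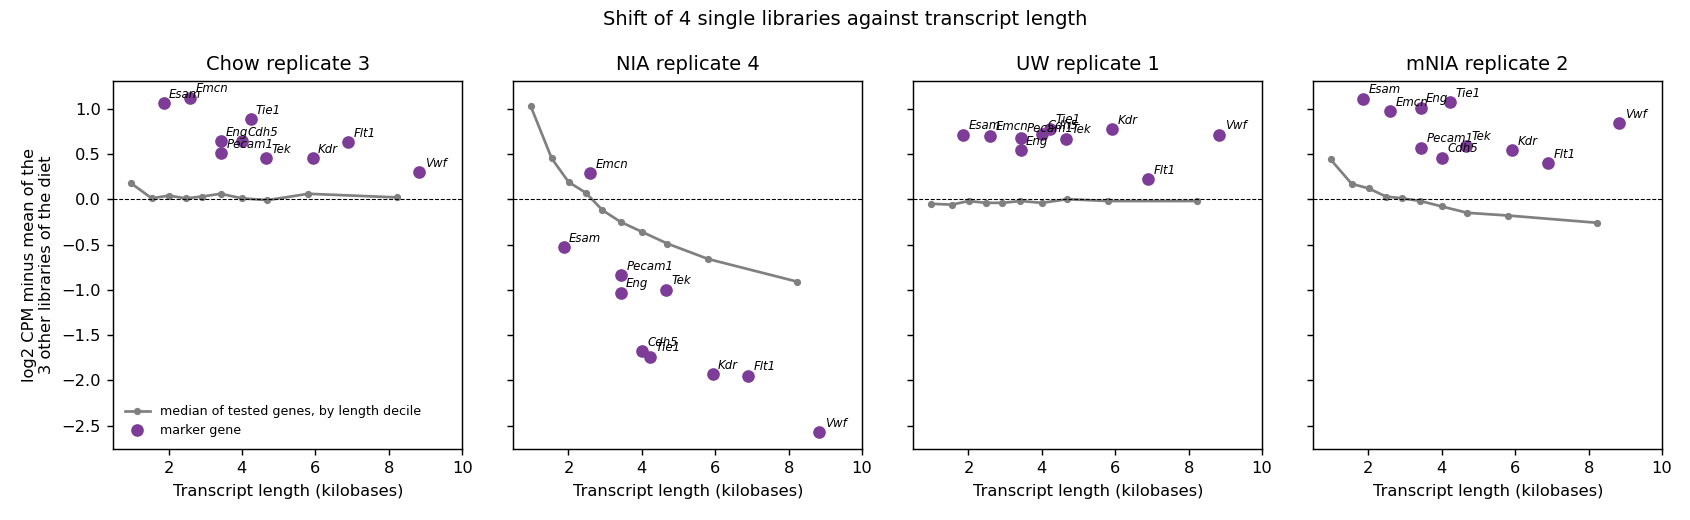
Log2 CPM of 1 library minus the mean of the 3 other libraries of its diet (vertical axis) against transcript length in kilobases (horizontal axis), for the 10 endothelial genes (points) and as the median of all tested genes by length decile (grey line). The grey line is near 0 in chow replicate 3 and UW replicate 1 and falls from 1.03 to -0.91 in NIA replicate 4, where 9 of the 10 genes lie below it.

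Other cell types moved with the same animals in part. A list's level is the average over its genes of log2 CPM relative to that gene's 16-library mean. On this scale the 10 endothelial genes were at 0.68 in chow replicate 3, 0.60 in UW replicate 1, 0.57 in mNIA replicate 2 and -1.27 in NIA replicate 4. The 10 cardiomyocyte markers were at -0.51, -0.45, -0.32 and -0.05 in these libraries and summed to 58300 to 87500 CPM on chow, 51500 to 112000 on NIA, 56400 to 86500 on UW and 65100 to 108000 on mNIA. The 13 pericyte and smooth muscle markers were at 0.48, 0.10, 0.25 and -0.74 (2360 to 3510 CPM on chow, 2300 to 3820 on NIA, 2810 to 3970 on UW and 3060 to 4080 on mNIA), and the 10 fibroblast markers at 0.05, 0.68, 0.08 and -0.37 (2230 to 2590, 1950 to 2470, 2090 to 3390 and 2030 to 2520 CPM). The 10 macrophage markers were at 0.03, 0.94, 0.01 and 0.00, and the 12 markers of erythrocytes and platelets at 1.12, 0.07, 0.82 and -0.01. Levels near 0 in NIA replicate 4 averaged over markers that diverged. Of the cardiomyocyte markers, Myh6 was at its lowest there (5360 CPM), while Tnnt2 was at 15900 CPM in a range of 6670 to 18100. Of the blood markers, Hbb-bs (1480 CPM) and Pf4 (29.2) were at their highest and Itga2b (0.711) at its lowest. Summed CPM of the macrophage list ran from 282 to 364 on chow, 199 to 453 on NIA, 252 to 601 on UW and 212 to 312 on mNIA, and of the blood list from 2440 to 6230, 1920 to 7330, 1200 to 3430 and 1580 to 4610. The 3 libraries high in endothelial genes had low cardiomyocyte levels in common, though NIA replicate 2 was as low (-0.54), while fibroblast and macrophage markers were high in UW replicate 1 and blood markers in chow replicate 3 and mNIA replicate 2. All markers of these 5 lists were tested, defining ones such as Pdgfrb (21.3 to 118 CPM), Pdgfra (19.9 to 76), Adgre1 (2.52 to 18.1) and Hbb-bs (178 to 1480) were above 0 in every library, and their part in the endothelial values was not tested. Of 10 lymphocyte markers 3 passed the count filter, with a sum of 2.73 to 9.81 CPM per library. The first principal component of all tested genes, with 42.3% of the variance of log2 CPM, followed the level of the 10 genes closely (absolute Pearson r 0.96 over 16 libraries, given as a description since the 10 genes are among those that define it).

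**Figure D4:**
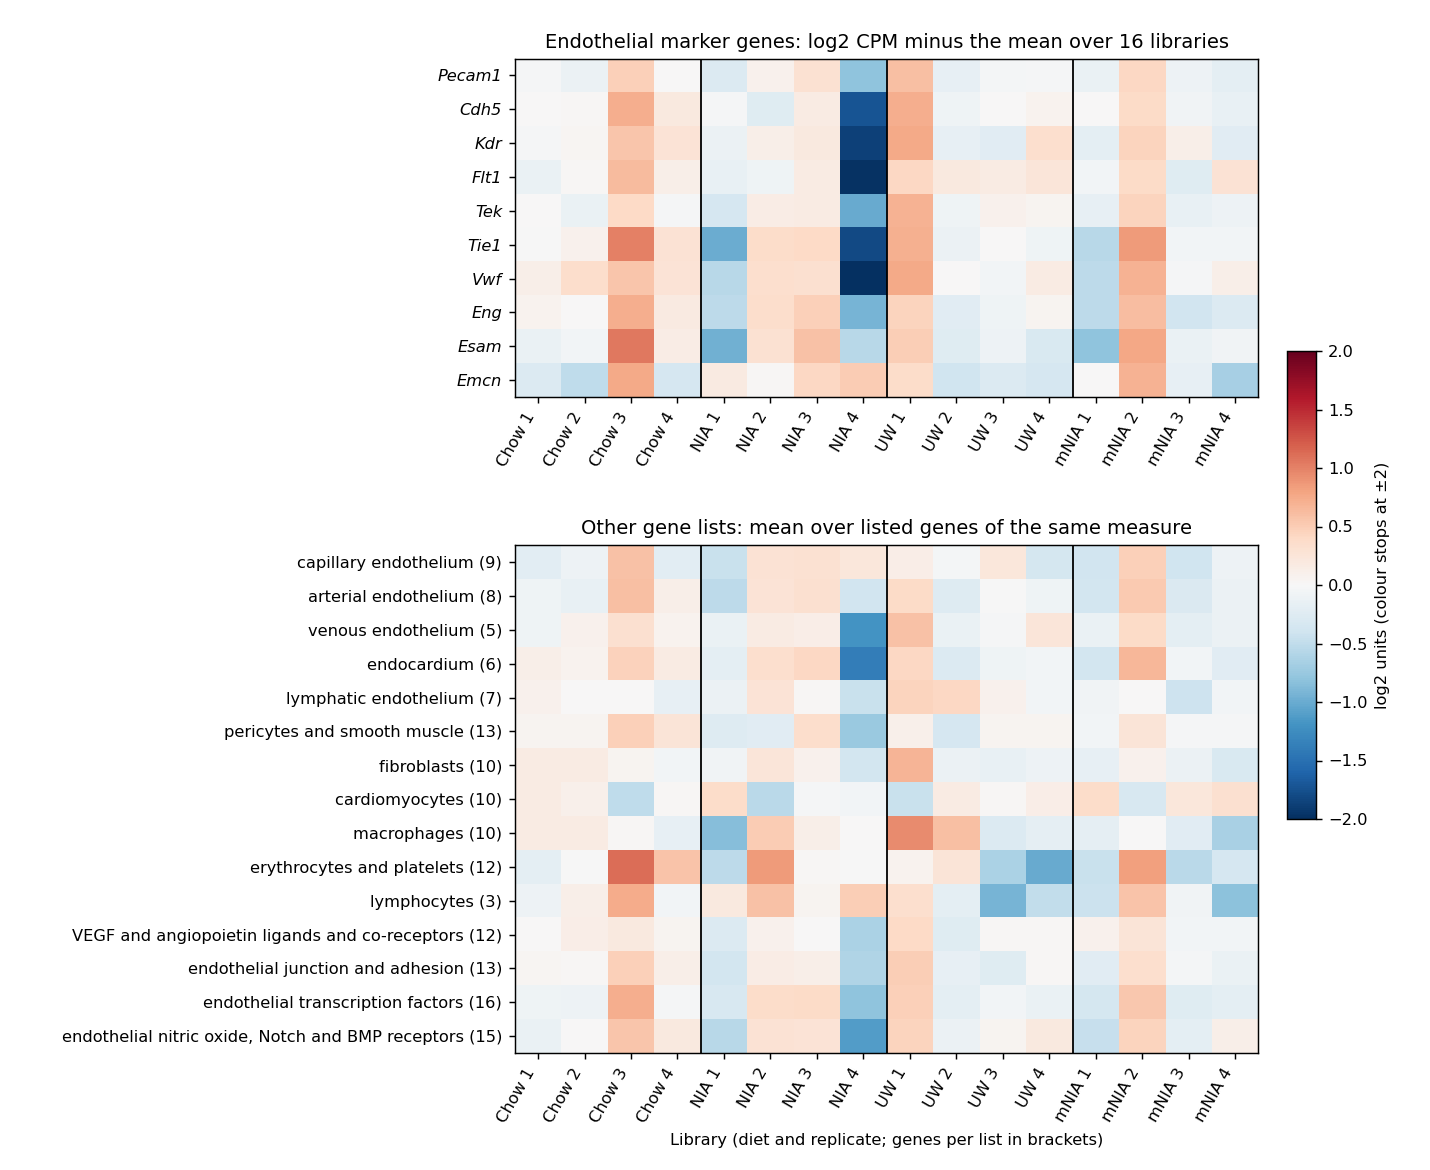
Upper panel: log2 CPM of each endothelial gene relative to its 16-library average. Lower panel: the mean of the same measure over the genes of 15 other lists (number tested in brackets). Red is above and blue below the mean; chow 3, UW 1 and mNIA 2 are red for all 10 endothelial genes and NIA 4 is blue for all but Emcn.

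Across the 16 animals 9 of the 10 genes varied together. Over the 36 pairs without Emcn, Pearson's r of log2 CPM ran from 0.51 to 0.97 (median 0.89) and Spearman's rho from 0.52 to 0.98, and 35 of 36 passed by each measure after adjustment over all 45 pairs (permutation test with 100000 resamples, two-sided; largest adjusted p = 0.051 for r, for Flt1 with Esam, and 0.052 for rho, for Kdr with Flt1). Without NIA replicate 4 the median r was 0.82 (0.58 to 0.98), and without the 2 libraries furthest from the median of the first gene of a pair r was 0.5 to 0.97. The relation did not rest on the diets: with diet means taken off, the r of each of these 9 with the other 9 of the set was 0.77 (Esam) to 0.98 (Tek), and that of Emcn was 0.39. Over all pairs of tested genes the median r was 0.01, and 2.93% of pairs exceeded 0.8. The share of all pairs that would pass the permutation test was not counted. With the level of the 10 genes, diet means taken off, 31.9% of the other tested genes had r over 0.5. The closest pair was Pecam1 and Tek (r = 0.97, rho = 0.92, permutation adjusted p = 3.7e-05 and 6.4e-05, the smallest reached; r = 0.94 without the 2 libraries furthest from the median of Pecam1). The VEGF receptors Kdr and Flt1 were at r = 0.91 and rho = 0.52 (permutation adjusted p = 0.0013 and 0.052), and r was 0.50 without the 2 libraries furthest from the median of Kdr, so that relation rested on those libraries. The angiopoietin receptors Tek and Tie1 were at r = 0.93 and rho = 0.87 (permutation adjusted p = 3.7e-05 and 6.4e-05), and at r = 0.91 without 2 libraries.

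Emcn correlated with the others weakly over all animals and more closely without 1 of them. Its r with the other 9 genes ran from -0.11 (Flt1) to 0.44 (Esam), with 0 of 9 pairs past the threshold (permutation test, adjusted p from 0.11 to 0.9 for r and from 0.12 to 0.92 for rho). Without NIA replicate 4 those 9 values ran from 0.38 (Vwf) to 0.77 (Pecam1), with a median of 0.63, which is a description of the 15 libraries. The ratio of Emcn to Cdh5 CPM was 1.11 in NIA replicate 4 and 0.275, 0.287 and 0.283 in NIA replicates 1 to 3. It was 0.165 to 0.244 on chow, 0.178 to 0.196 on UW and 0.167 to 0.296 on mNIA. All NIA animals thus lay above those on chow and UW in this ratio, while mNIA overlapped with NIA, and the difference was not tested. Leaving out NIA replicate 4 lowered r between Kdr and Flt1 to 0.58 and raised it between Tie1 and Esam from 0.86 to 0.98.

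**Figure D5:**
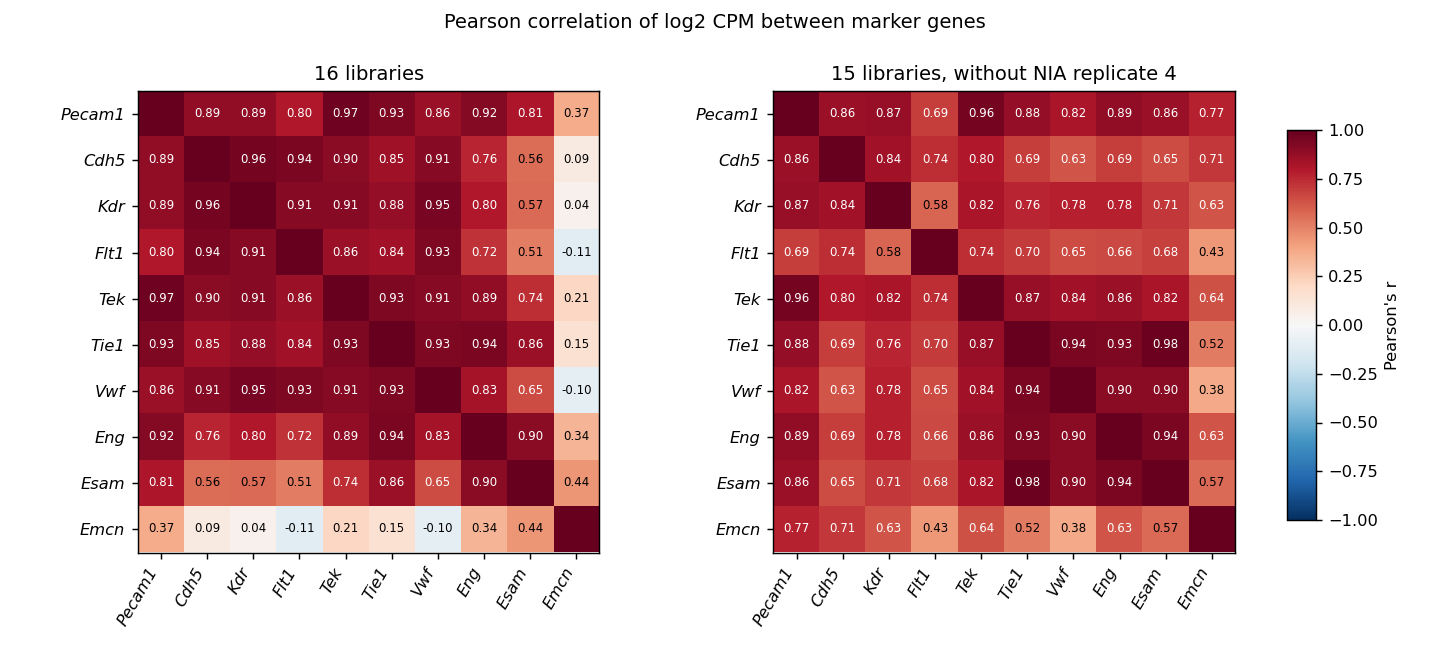
Pearson's r of log2 CPM for each pair of the 10 genes, over 16 libraries (left) and over 15 without NIA replicate 4 (right); colour runs from -1 (blue) to 1 (red). The row of Emcn is pale on the left (-0.11 to 0.44) and red on the right (0.38 to 0.77).

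The genes most like the endothelial level, after the mean of each diet was taken off, were Plxnd1 (r = 0.985), Naip5 (0.982), BC017158 (0.981), Zbtb46 (0.977), Nckap5l (0.975), Actn4 (0.974), She (0.973) and Rgs3 (0.972), each over 16 libraries. Plxnd1 encodes a semaphorin receptor of endothelial cells. Such values were common: 12.6% of the other 13371 tested genes had r over 0.8 and 3.79% over 0.9 with that level. For single genes the nearest partner was Tek for Pecam1 and Pecam1 for Tek (0.984), Adam15 for Tie1 (0.993), Snx33 for Vwf (0.989), 4933427D14Rik for Flt1 (0.987), Rapgef3 for Eng (0.979), Lima1 for Cdh5 (0.973), Efnb2, which encodes the arterial ligand ephrin-B2, for Kdr (0.972), Adcy4 for Esam (0.972) and Ptma for Emcn (0.944). The correlations of the sparsest of these, such as Naip5 (1.42 to 26.1 CPM) and 4933427D14Rik (0 to 15.9 CPM), rest on few counts in the smaller libraries.

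Genes that act with the 10 were counted from lists of the VEGF and angiopoietin pathway, junctions, transcription factors and endothelial signalling, of which 0 genes passed for the 3 formulas together against chow (edgeR; 0% of all tested genes passed, and DESeq2 called 0%). Of 12 VEGF and angiopoietin ligands and co-receptors, 8 had a lower and 4 a higher mean on the 3 formulas (median log2 fold change -0.07), among them Angpt2, the antagonist ligand of TIE2, at -0.49 ± 0.29 (9.45 ± 3.91 CPM on chow, 5.83 ± 2.32 on NIA, 6.36 ± 2.38 on UW and 7.52 ± 3.12 on mNIA; SD, n = 4). Of 13 junction and adhesion genes, 11 were lower (median -0.18), with the tight junction gene Cldn5 at -0.70 ± 0.42, and its SD in chow (28.8) was close to its mean (31 CPM). Of 16 transcription factors, 12 were lower (median -0.14), with the SOX family gene Sox7 at -0.40 ± 0.26. Of 15 genes of nitric oxide, Notch and BMP signalling, 11 were lower (median -0.20): the Notch ligand gene Dll4 was at -0.60 ± 0.33, whereas Tspan12, a partner of the Norrin receptor FZD4, was at 0.54 ± 0.22 (adjusted p = 0.938). The receptor gene Fzd4 had the smallest unadjusted p of these lists in the joint test (0.0137, adjusted p = 0.577), at 30.6 ± 7.16 CPM on chow, 25.7 ± 10.8 on NIA, 50.2 ± 4.98 on UW and 41.2 ± 11.2 on mNIA. The median of all tested genes was 0 in the comparison of the 3 formulas with chow, and 49.6% of them were lower.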

How the data were processed

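RNA from 16 ventricles was sequenced as stranded, poly-A selected, 75-base single reads from RNA with an integrity number above 7, per the labels' protocols. For the expected counts per gene that the authors deposited, which are not all whole, the submitters' processing notes name BWA, DESeq2 and mm10, and the counting tool and gene models are not given in the sources used here. The counts were rounded, filtered with filterByExpr by diet (13381 of 17737 genes kept), scaled by TMM and tested with edgeR 4.0.16 (R 4.3.3), quasi-likelihood, 1 mean per diet, Benjamini-Hochberg adjustment over all tested genes, threshold 0.05. Standard errors come from the fold change and its F statistic. Log2 CPM used a prior count of 2. The named genes were the 10 members; the 2 genes of each related list with the smallest p for the 3 formulas against chow and in the joint test could be named; and the 8 tested genes most correlated with the member level, plus the closest gene to each member. The members and lists were chosen with earlier results of these data known. Marker lists covered capillary, arterial, venous, endocardial and lymphatic endothelium, mural cells, fibroblasts, cardiomyocytes, macrophages, erythrocytes and platelets, and lymphocytes. Transcript lengths came from GENCODE vM21 (99.1% of tested genes matched by symbol); coordinates are those of the file. Alternatives were RLE and upper-quartile scaling, DESeq2 1.42.0, limma-voom 3.58.1 with quality weights, 2 other count filters, a replicate block, fits of 2 diets alone, removal of each library or of 4 libraries, and centring by transcript length. Each library is 1 animal per the labels, and no 2 libraries of a diet agreed within sampling noise (lowest chi-square per degree of freedom 4.3). The fitting was tested on simulated data.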

Additional observations from a re-analysis of the deposited data

Results flagged for a closer look

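In 9 of the 40 combinations of gene and diet 1 animal lay far from the other 3 in CPM, by the gap to its nearest neighbour over the whole range of the group. Chance marks about 1 in 20 such groups, and the 10 genes are not independent of one another. UW replicate 1 accounted for 4: Pecam1 (339 CPM, others 200.3 to 218), Cdh5 (516, others 296 to 329.7), Tie1 (177, others 99.8 to 108) and Emcn (95.8, others 56.4 to 61.3). mNIA replicate 2 accounted for 3: Pecam1 (299 CPM, others 194 to 208), Tek (113, others 73.7 to 77.5) and Eng (356, others 162 to 191). Chow replicate 3 accounted for 2: Esam (143 CPM, others 63 to 76.2) and Emcn (126, others 52.3 to 61.9). All 9 were on the high side. NIA replicate 4 was marked 0 times. Both statements hold for CPM, and groups were not marked on the log2 scale, where low values lie further apart. Relative to the gene's own mean, log2 CPM of Kdr was -1.87 in NIA replicate 4 and -0.11, 0.11 and 0.19 in the other 3 NIA animals. For Flt1 it was -1.97 against -0.15, -0.09 and 0.17. The marks therefore do not show that low animals were absent.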

How the results depend on the processing

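Counts of members past the threshold were 0 in the main analysis of all 8 comparisons and equal to it in 204 of 206 alternatives; leaving out any 1 library gave 0 each time. Without the 4 libraries of low quality weight, 2 members (Eng and Esam) passed in mNIA minus NIA, as did 23.1% of all tested genes. In the joint test of that setting 1 member passed, as did 9.97% of all tested genes. Of 1810 alternative results of single members, 127 had another sign than the main value. In most of these the main value was within 1 SE of 0. A turned sign was counted where the main value was at least 1 SE from 0 or the alternative passed the threshold, which gave 11. Among these, Esam in mNIA minus NIA (0.05 ± 0.37 in the main analysis) counted only because the alternative passed. A further 1 passed the threshold with its sign kept. Without those 4 libraries the sign turned in NIA minus chow for Kdr (0.03), Flt1 (0.02), Tie1 (0.23) and Vwf (0.05), in mNIA minus NIA for Cdh5 (-0.05), Flt1 (-0.03) and Esam (-0.75), in UW minus NIA for Vwf (-0.04), and for Esam (0.04) in the 3 formulas minus chow, where leaving out 1 library at a time gave -0.45 to 0.02, the highest without chow replicate 3. With limma-voom Vwf was at -0.01 in UW minus NIA. The cause was not tested. The median SD within diets was 0.53, 0.36 to 0.55 with 1 library left out. With the replicate number as a block, 0 members passed in any comparison and the median log2 fold change for the 3 formulas minus chow was -0.26. The numbers do not pair the animals by any label: deviations of same-numbered libraries correlated from -0.58 to 0.61 over 24 pairs, and 4 of 16 libraries correlated best with their own number. Depth limits NIA replicate 4 most.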

Other observations

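Markers of the kinds of endothelium did not move alike in NIA replicate 4. Of 9 capillary markers, 6 were higher there than the mean of the other 3 NIA animals (median log2 difference 0.39). Gpihbp1, which anchors lipoprotein lipase in capillaries, was at 211 CPM in NIA replicate 4 and 47.8, 92.2 and 98.2 in replicates 1 to 3, and Fabp4, a fatty acid binding protein, was at 2140 against 877, 1240 and 1500. Cd36, a fatty acid transporter that cardiomyocytes also express, was at 3450 CPM against 3000, 2080 and 1560. Kdr, the 1 gene shared with the 10 described above, was the lowest of this list at -1.93. Aqp1 (-0.47) and Cd300lg (-0.42) were lower as well. All 5 venous markers (median -1.01) and 5 of 6 endocardial markers (median -1.59) were lower, with Vwf in both lists, and Npr3, a natriuretic peptide receptor of the endocardium, was at 14.9 CPM against 44.5, 36.4 and 42.3. Of 8 arterial markers 5 were lower (median -0.23). The median transcript length was 2627 bases in the capillary list, 3455 in the arterial, 4340 in the venous and 4185.5 in the endocardial list. Over all tested genes the median difference in this library was 1.03 in the shortest length decile (968 bases) and -0.91 in the longest (8233 bases). Fabp4 (896 bases) was at 0.86, Gpihbp1 (1652 bases) at 1.48 and Cd36 (3399 bases) at 0.69. The part of transcript length in these values was not tested. The genes named here were chosen after their values were seen.

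Lymphatic endothelial markers were near their average in 2 of the 3 animals in which the blood vessel markers were high. Their level was 0.01 in chow replicate 3 and 0.00 in mNIA replicate 2, where the 10 genes were at 0.68 and 0.57, and 0.44 in UW replicate 1. Lyve1, a hyaluronan receptor of lymphatic vessels, was at 11.7 to 31 CPM over the 16 libraries. Prox1, the transcription factor that defines lymphatic identity and is also expressed in cardiomyocytes, was at 39.1 to 154 CPM. Its lowest value, 39.1 CPM, was in chow replicate 3, and it was at 42.7 in mNIA replicate 2 and 68.3 in UW replicate 1. Lyve1 was at 15.7, 16.8 and 22.1 CPM in these animals. The part of Prox1 in the level of the lymphatic list was not tested.

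For the 3 formulas against chow, 0 genes of any marker list passed (edgeR, adjusted over all tested genes, 0% of which passed). The median log2 fold change was -0.06 for capillary, -0.13 for arterial, -0.11 for venous, -0.11 for endocardial and 0.08 for lymphatic markers, -0.34 for pericyte and smooth muscle markers, -0.10 for fibroblast, 0.09 for cardiomyocyte and 0.00 for macrophage markers, and -0.26 for the 3 lymphocyte markers tested. Markers of erythrocytes and platelets were lower in mean for 12 of 12 genes (median -0.48), against 49.6% of all tested genes, and chow replicate 3 was high in them (1.12 on the log2 scale).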
